A study of Bos taurus with 2 samples.

Results

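Clusters 13 and 10 are a pair of cell populations in cultured bovine satellite cells that received no cell type name in the study, and that had fewer RNA molecules counted per cell than most of the other clusters. The members are the cells whose cluster number, fixed exactly by the deposited averages per cluster, is 13 or 10. Cluster 13 held 602 cells and cluster 10 held 1010 cells, together 1612 of the 19096 cells in the 15 clusters. The cells came from the longissimus muscle of a single Holstein bull calf aged 2 weeks, were enriched for satellite cells by digestion and differential centrifugation, grown for 1 week in serum-containing growth medium, and divided over 2 single-cell RNA sequencing libraries, replicates 1 and 2. All cells shared the same animal, culture and medium, with no treatment, so each comparison is between clusters within these libraries. The spread between replicates is that of library preparation, and p-values say nothing of the spread between animals. The question addressed was whether these unnamed populations differ from each other in gene expression, and in which genes.

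Satellite cells are the stem cells of adult skeletal muscle. Once activated they express the transcription factors MYF5 and MYOD1 and divide as myoblasts, and they later switch on MYOG and the sarcomere genes as they leave the cell cycle. Muscle also holds fibro-adipogenic progenitors marked by PDGFRA, and a culture can hold fibroblasts and vessel cells as well. Each captured RNA molecule is marked by a unique molecular identifier (UMI) near its 3′ end, so a gene's UMIs are not divided by its length. A level is given here as the UMIs of a gene per 10000 UMIs of the cluster in a library, with the SD over the 2 libraries.

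The clearest difference between the clusters was the number of UMIs per cell. Cluster 13 had a median of 1631 UMIs per cell and a range of 553 to 3323. Cluster 10 had a median of 5398.5, which is 3.31 times higher, and a range of 2111 to 54036. The overlap was small, since 466 cells of cluster 13 (77.4%) lay below the shallowest cell of cluster 10, and 842 cells of cluster 10 (83.4%) lay above the deepest cell of cluster 13. Cluster 10 had a long upper tail, in which 269 cells of 8000 UMIs or more held 55.7% of its UMIs. The other 13 clusters had medians from 647 in cluster 15 to 23011 in cluster 9. Only clusters 15 and 7 were shallower than cluster 13, and only those and cluster 14, at 2513.5, were shallower than cluster 10, beside cluster 13 itself.

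**Figure D1:**
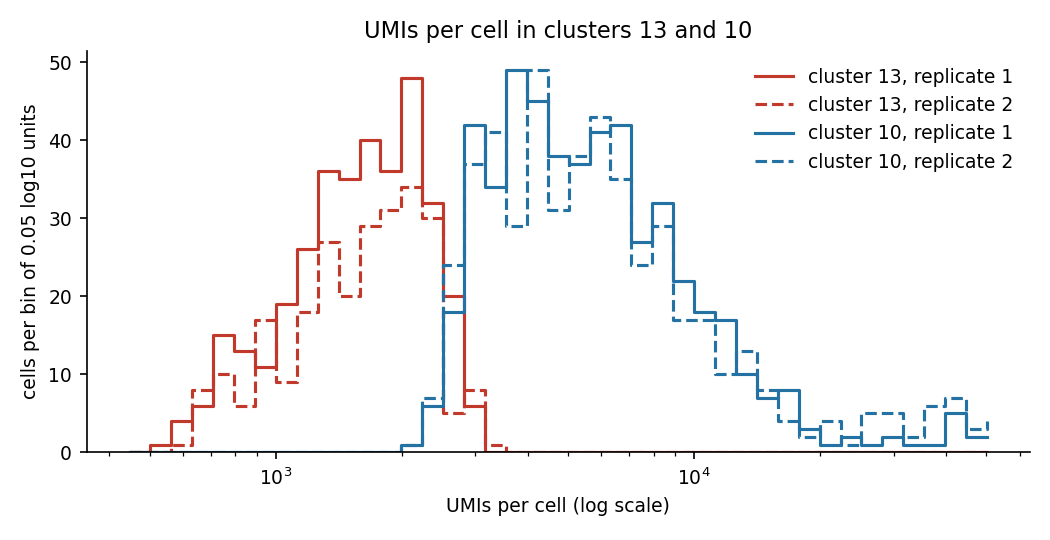
UMIs per cell (log scale) against the number of cells per bin of 0.05 log10 units, for cluster 13 (red) and cluster 10 (blue) in replicate 1 (solid) and replicate 2 (dashed). The replicates of a cluster span the same range, and the clusters overlap only between 2111 and 3323 UMIs.

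Both clusters were found in both libraries. Cluster 13 made up 348 of 9939 cells in replicate 1 (3.5%, exact binomial 95% interval 3.15 to 3.88) and 254 of 9157 cells in replicate 2 (2.77%, 2.45 to 3.13). Cluster 10 made up 514 cells (5.17%, 4.74 to 5.63) and 496 cells (5.42%, 4.96 to 5.9). The intervals cover counting error only. The summed UMIs were 573117 and 421753 in cluster 13 and 3700741 and 4087236 in cluster 10 (replicates 1 and 2), so values of cluster 13 are the less precise. A total of 27 cell barcodes occurred in both libraries, 3 of them in these clusters. No doublet caller was run, and doublets were kept.

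Once depth was made equal, the clusters detected a similar number of genes. Per cell, a median of 872 genes was detected in cluster 13 and 2037 in cluster 10. After each cell was thinned to 1000 UMIs the medians were 599.5 and 615, with 92 cells of cluster 13 left out because they held fewer. In replicates 1 and 2 the thinned medians were 600 and 598 in cluster 13 and 615 in both libraries of cluster 10, so the gap of 15.5 genes was larger than the spread between libraries. At 500 UMIs, which every cell reached, the medians were 352 and 356. Ribosomal protein genes gave a median of 30.9% of a cell's UMIs in cluster 13 and 30.2% in cluster 10. No mitochondrially encoded gene of the list was matched in the deposited feature list, so the mitochondrial share, a usual sign of damaged cells, was not analysed here.

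The 2 clusters resembled each other more than either resembled any other cluster. Over 2979 genes with a mean level of at least 0.5, the log2 levels of clusters 13 and 10 had a Pearson correlation across genes of 0.989. The next highest value was 0.89 for cluster 13, with cluster 1, and 0.916 for cluster 10, with cluster 6. The replicates of cluster 13 correlated with each other at 0.974 and those of cluster 10 at 0.993. Values between clusters use the mean of both libraries and those between replicates single libraries, so the 2 kinds cannot be set against each other. The correlation is a description across genes, which are not independent, and the clusters were formed from these same counts.

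The markers of muscle precursors were expressed in both clusters. MYOD1, the myogenic determination factor, had levels of 7.0 and 6.5 in cluster 13 and 5.76 and 5.44 in cluster 10 (replicates 1 and 2), while the other 13 clusters ranged from 0.464 to 7.02. DES, the muscle intermediate filament desmin, had 6.91 and 5.83 in cluster 13 and 4.39 and 5.27 in cluster 10. MYF5, the other early determination factor, had 0.803 and 0.664 in cluster 13 and 0.616 and 0.602 in cluster 10. The other 13 clusters ranged from 0.126 to 1.64 for MYF5, with a median of 1.05. Both clusters lay below that median, and above those of MYOD1 and DES, 2.71 and 4.02. For MYOD1 and DES the libraries of cluster 13 lay above those of cluster 10, but neither passed the test (log2 fold change 0.30, SE 0.0779, and 0.44, SE 0.105, edgeR adjusted p = 0.253 and 0.245). MYF5 had a log2 fold change of 0.32 (SE 0.175, edgeR adjusted p = 0.679).

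Shares of cells with a UMI gave the same picture at equal depth. At 1000 UMIs per cell, MYOD1 was detected in 41% of cells of cluster 13 (36.7 to 45.4) and 36.4% of cluster 10 (33.5 to 39.5), against 3.8% (2.74 to 5.12) in cluster 9, the fibro-adipogenic population in which MYOD1 should be lacking. Without thinning the shares were 53%, 78.4% and 38.1%, at median depths of 1631, 5398.5 and 23011 UMIs. DES was detected in 34.7% and 32.2% of the thinned cells, against 6.57% in cluster 9. MYF5 was detected in few, 7.06% (4.99 to 9.64) and 5.45% (4.13 to 7.03), against 1.3% in cluster 9. The intervals of clusters 13 and 10 overlapped for each of these genes. Intervals of detection shares, here and below, cover counting error over cells pooled from both libraries. They leave out the spread between libraries, so whether they overlap is a description and no test.

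Satellite cell markers were near 0, and those of differentiated muscle lay near the median of the other clusters. PAX7 and PAX3, the satellite cell markers, had 1 UMI each in cluster 13 and 2 and 9 UMIs in cluster 10. Their summed level, as the mean of 2 libraries, was 0.0237 in cluster 13 and 0.0144 in cluster 10. In the other clusters that mean had a median of 0.0176 and reached 0.0382 in cluster 8, so these markers were scarce everywhere. The 7 myocyte markers summed to 5.22 and 3.68 in cluster 13 and 3.68 and 4.25 in cluster 10, which is 1.17 and 1.04 times the median of the other clusters. MYOG, which drives differentiation, had 1.5 and 0.925 in cluster 13 and 1.38 and 1.5 in cluster 10, against 18.1 and 19.2 in the myocytes of cluster 12. Its log2 fold change was −0.18 (SE 0.164, edgeR adjusted p = 0.829). None of the 7 myocyte markers was called without a block for the library in the fit. Their median log2 fold change was 0.14 (0.57 and −0.01 in replicates 1 and 2). MYH3, the embryonic myosin heavy chain, had 1.19 and 0.711 in cluster 13 and 0.508 and 0.7 in cluster 10 (log2 fold change 0.72, SE 0.23, edgeR adjusted p = 0.356), and its libraries of replicate 2 were nearly equal.

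Endothelial, immune, fat and red blood cell markers were at or near 0 in both clusters, while some pericyte and glial markers were measured. Of the 6 endothelial markers, CDH5 and PECAM1 were at 0 in both clusters, and the summed level reached at most 0.0711. The 6 immune markers summed to at most 0.0523, with PTPRC, CD74, CSF1R and TYROBP at 0 in both clusters. The 4 adipocyte markers summed to at most 0.00979, with ADIPOQ at 0, and the erythroid markers to at most 0.00734, with HBB at 0. A count of 0 allows a level of up to 0.0302 in cluster 13 and 0.00385 in cluster 10, taking 3 counts over the cluster as the limit. The 6 pericyte markers summed to 1.27 and 1.02 in cluster 13 and 0.948 and 0.92 in cluster 10, which is 1.97 and 1.6 times the median of the other clusters and below cluster 7, the highest at 4.01. Among them RGS5 was at 0 in both clusters and only NOTCH3 and CSPG4 were abundant enough to test. NOTCH3, a receptor of the Notch pathway, had 0.803 and 0.782 in cluster 13 and 0.511 and 0.538 in cluster 10 (log2 fold change 0.63, SE 0.175, edgeR adjusted p = 0.295). CSPG4 had 0.436 and 0.213 in cluster 13 and 0.432 and 0.372 in cluster 10, with a log2 fold change of the other sign (−0.21, SE 0.274, edgeR adjusted p = 0.898). MCAM had 1 UMI in cluster 13 and 0 in cluster 10. The 5 glial markers summed to 0.401 and 0.522 in cluster 13 and 0.367 and 0.343 in cluster 10, or 1.49 and 1.15 times the median elsewhere. Of these S100B alone was tested (log2 fold change 0.38, SE 0.228, edgeR adjusted p = 0.698).

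No fibroblast or smooth muscle marker was called over all cells without a block for the library in the fit. With that block COL1A2 and ACTA2 were called higher (log2 fold change 0.17 and 0.31, edgeR adjusted p = 1.85e-05 and 0.039). In the same fit 0.71% of all genes were called higher. The 4 fibroblast markers summed to 101 and 95.9 in cluster 13 and 94.3 and 91.3 in cluster 10, nearly all of it from COL1A1 and COL1A2. Cluster 7 reached 413. S100A4, of the same list, had 2.6 and 2.13 in cluster 13 and 2.79 and 2.71 in cluster 10, below all other sums (3.09 to 21.6). DCN had 5.06 and 4.86 in cluster 13 and 5.32 and 4.9 in cluster 10, under the median elsewhere of 6.65. The smooth muscle markers summed to 4.55 and 3.98 in cluster 13 and 3.97 and 3.37 in cluster 10, mostly ACTA2, and both clusters lay under the lowest other cluster (5.37, cluster 6). MYH11 had 1 UMI in cluster 13 and 6 in cluster 10.

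Markers of fibro-adipogenic progenitors had lower levels in cluster 13, but none passed the test without the library block. PDGFRA, the receptor that marks these progenitors, had 0.209 and 0.285 in cluster 13 (12 UMIs in each library) and 0.532 and 0.472 in cluster 10. Its log2 fold change was −1.02 (SE 0.26, edgeR adjusted p = 0.253), and the groups did not overlap. With the library added as a block to the fit, so that sums of the same library are compared, it was called lower (−1.03, edgeR adjusted p = 0.0329). At 1000 UMIs per cell it was detected in 2.35% of cells of cluster 13 (1.22 to 4.07) and 5.35% of cluster 10 (4.04 to 6.92), against 1.28% (0.552 to 2.5) in the myocytes of cluster 12, whose interval overlaps that of cluster 13. At 500 UMIs, which keeps all cells, the shares were 1.83% (0.916 to 3.25) and 2.08% (1.29 to 3.16), whose intervals overlap. Without thinning the shares were 3.65%, 24% and 16.7%, at median depths of 1631, 5398.5 and 19113 UMIs. PPARG, the regulator of fat cell formation, had no UMI in cluster 13 and 56 in cluster 10, a level of 0.0719, which is at least 2.38-fold higher than the limit of 3 counts over cluster 13. The median log2 fold change over the 4 tested markers was −0.83, also with PPARG set at its bound, against 0.003 for all genes. LUM, a matrix proteoglycan, carried most of the summed level, with 2.23 and 2.35 in cluster 13 and 2.43 and 2.53 in cluster 10 (log2 fold change −0.09, SE 0.105, edgeR adjusted p = 0.886).

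Few genes were called between the clusters. Of 8876 genes tested, 7 were called at an adjusted p under 0.05 (0.0789%), with 6 higher (0.0676%) and 1 lower (0.0113%) in cluster 13. The genes higher in cluster 13 were RPS26, RPS15 and RPLP1, which encode ribosomal proteins, the growth factor IGF2, the elastic fibre protein elastin (ELN) and ADIRF, an adipogenesis regulatory factor. TXN, which encodes the redox protein thioredoxin, was lower. At an unadjusted p under 0.05 there were 736 genes (8.29%), 357 higher and 379 lower. Of the 1629 genes at a level of at least 1 in either cluster, 1602 (98.3%) differed by less than 0.5 on the log2 scale, 1 differed by more than 1 (ACTA1, at 1.40, not called), and the median SE was 0.123.

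The test was edgeR's quasi-likelihood test on 2 sums against 2, and because the clusters were formed from the same counts, its p-values are no independent evidence that they differ. Sums with the same replicate number come from the same library, so the result of adding library as a block is given too. That fit called 63 higher (0.71%) and 66 lower (0.744%), among them all 7 genes above, and leaves 1 residual degree of freedom. A call in it does not require that both libraries agree in direction, as ACTA1 below shows. Without TMM scaling, a correction for library composition, 6 genes were higher (0.0676%) and 4 lower (0.0451%).

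**Figure D2:**
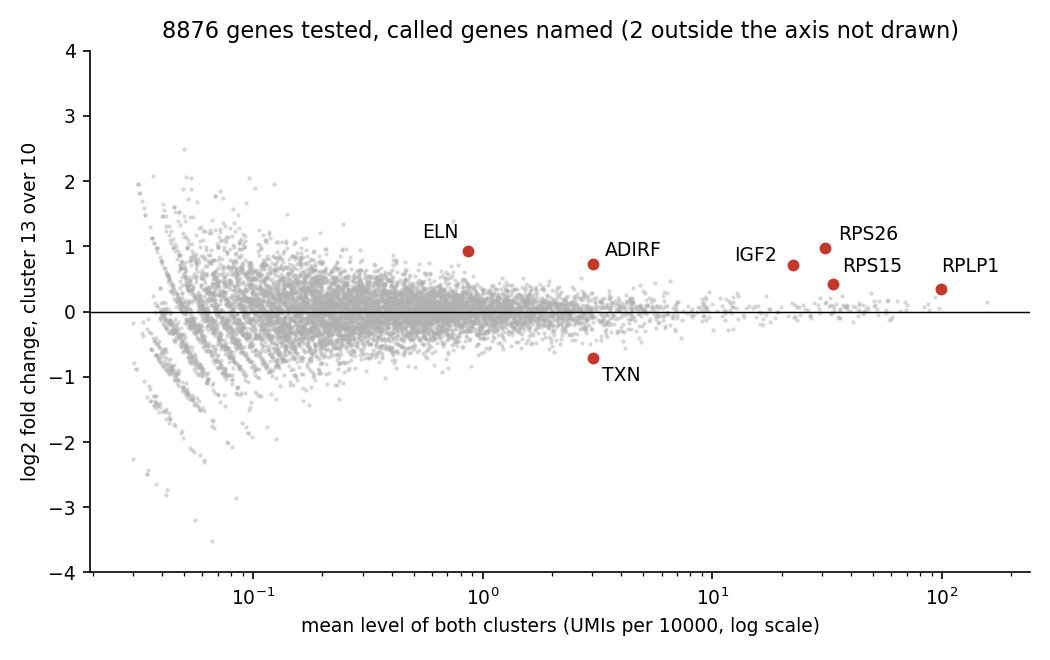
Mean level of both clusters (UMIs per 10000, log scale) against the log2 fold change of cluster 13 over cluster 10 for the 8876 genes tested, with the 7 called genes in red and 2 genes outside the axis not drawn. The genes spread around 0 and the called genes stand at the edge of the cloud for their level, with TXN alone below 0.

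RPS26 (ENSBTAG00000038896), a protein of the small ribosomal subunit, differed the most of the called genes. Its level was 40.7 and 40.8 in cluster 13 and 21.8 and 20.6 in cluster 10 (replicates 1 and 2), or 40.7 ± 0.0362 and 21.2 ± 0.861 (SD, n = 2 libraries). The libraries of cluster 13 were almost equal and the clusters were far apart (log2 fold change 0.97, SE 0.0577, edgeR adjusted p = 2.72e-07). None of the other 13 clusters came near cluster 13, as their libraries ranged from 5.29 to 21.3, and cluster 10 stood at the upper end of that range.

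RPS15 and RPLP1 were higher by smaller steps. RPS15 (ENSBTAG00000019718), also of the small subunit, had 38.3 and 38.2 in cluster 13 and 28.8 and 29.4 in cluster 10 (log2 fold change 0.42, SE 0.0571, edgeR adjusted p = 0.00607). RPLP1 (ENSBTAG00000018320), a protein of the large subunit stalk, had 112 and 107 in cluster 13 and 88.4 and 86.6 in cluster 10 (log2 fold change 0.35, SE 0.0503, edgeR adjusted p = 0.00675). For both genes the clusters did not overlap, and both clusters also lay above all libraries of the other 13 clusters, which reached 27.4 for RPS15 and 64.8 for RPLP1. Ribosomal protein genes have many processed copies in mammalian genomes, and reads shared with such a copy could shift these values.

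IGF2 (ENSBTAG00000013066), an imprinted fetal growth factor that acts on muscle precursors, had 27.2 and 27.8 in cluster 13 and 15.6 and 18.7 in cluster 10. Both libraries of cluster 13 exceeded both of cluster 10 (27.5 ± 0.461 against 17.2 ± 2.19, SD, n = 2; log2 fold change 0.71, SE 0.0811, edgeR adjusted p = 0.00121). Cluster 13 had the highest IGF2 level of the 15 clusters, next to the myocytes of cluster 12 at 20.7 and 25.8, and cluster 9 had the lowest at 1.94 and 1.61. At 1000 UMIs per cell IGF2 was detected in 57.3% of cells of cluster 13 (52.8 to 61.6) and 53.7% of cluster 10 (50.5 to 56.8), against 10.6% in cluster 9, and without thinning in 64%, 74.9% and 59.5%. At 500 UMIs, with all cells kept, the shares were 47.5% (43.5 to 51.6) and 41.3% (38.2 to 44.4). The intervals of clusters 13 and 10 overlapped at both depths, and cluster 13 had the larger share at both.

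The remaining called genes were less abundant. ADIRF (ENSBTAG00000032774) had 3.96 and 3.46 in cluster 13 and 2.06 and 2.54 in cluster 10 (log2 fold change 0.73, SE 0.121, edgeR adjusted p = 0.0341), inside the range of 0.567 to 4.99 elsewhere. ELN (ENSBTAG00000019517) had 1.15 and 1.09 in cluster 13, from 66 and 46 UMIs, and 0.573 and 0.629 in cluster 10 (log2 fold change 0.93, SE 0.158, edgeR adjusted p = 0.0353). Both were higher in cluster 13 than in cluster 10 in each library, by amounts that exceeded the spread between libraries. The other 13 clusters ranged from 0.168 to 1.15 for ELN, and the shallow cluster 7, at 1.15 and 1.0, was like cluster 13.

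TXN (ENSBTAG00000002953) had 2.16 and 2.37 in cluster 13 and 3.83 and 3.75 in cluster 10 (log2 fold change −0.72, SE 0.0996, edgeR adjusted p = 0.00618). Both clusters were low for this gene, since the other 13 clusters ranged from 4.98 to 16.3. At 1000 UMIs per cell it was detected in 18.4% of cells of cluster 13 (15.2 to 22.1) and 25.8% of cluster 10 (23.2 to 28.7), against 72.3% in cluster 1. At 500 UMIs the shares were 11% (8.58 to 13.7) and 12.4% (10.4 to 14.6), whose intervals overlap. Without thinning the shares were 30.4%, 76.4% and 99.9%.

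The calls depended on which libraries and cells were used, while all 7 genes kept their sign throughout. Without replicate 1 of cluster 13, 4 genes were higher (0.0404%) and 1 lower (0.0101%), and RPLP1, ADIRF, ELN and TXN lost their calls (edgeR adjusted p = 0.128, 0.396, 0.396 and 0.147). Without replicate 2 of cluster 13, 6 were higher (0.0605%) and 4 lower (0.0404%), and ELN lost its call (edgeR adjusted p = 0.0807). Without replicate 1 of cluster 10, 7 were higher (0.109%) and 14 lower (0.218%), and without its replicate 2, 18 were higher (0.28%) and 5 lower (0.0777%), with all 7 kept. A lone library was assumed to vary like the other group.

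RPS26 was the gene called under each of the 14 alternatives. In cells thinned to 1000 UMIs, where 5004 genes were tested, it was the single call (0.02%), with a log2 fold change of 0.76 (edgeR adjusted p = 2.72e-05), and IGF2 and ADIRF had an adjusted p of 0.0612 each. DESeq2 called 4 genes higher (0.0289%) and 1 lower (0.00724%), without ADIRF and ELN (adjusted p = 0.178 and 0.65). With no filter on low counts 15 genes were higher (0.109%) and 55 lower (0.398%). With all 15 clusters in 1 fit 10 were higher (0.0818%) and 41 lower (0.335%), without ADIRF and IGF2 (edgeR adjusted p = 0.0877 and 0.249). Without the cells of 8000 UMIs or more 5 were higher (0.0656%) and none lower, and ELN, RPLP1 and TXN lost their calls (edgeR adjusted p = 0.0938, 0.0548 and 0.192).

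**Figure D3:**
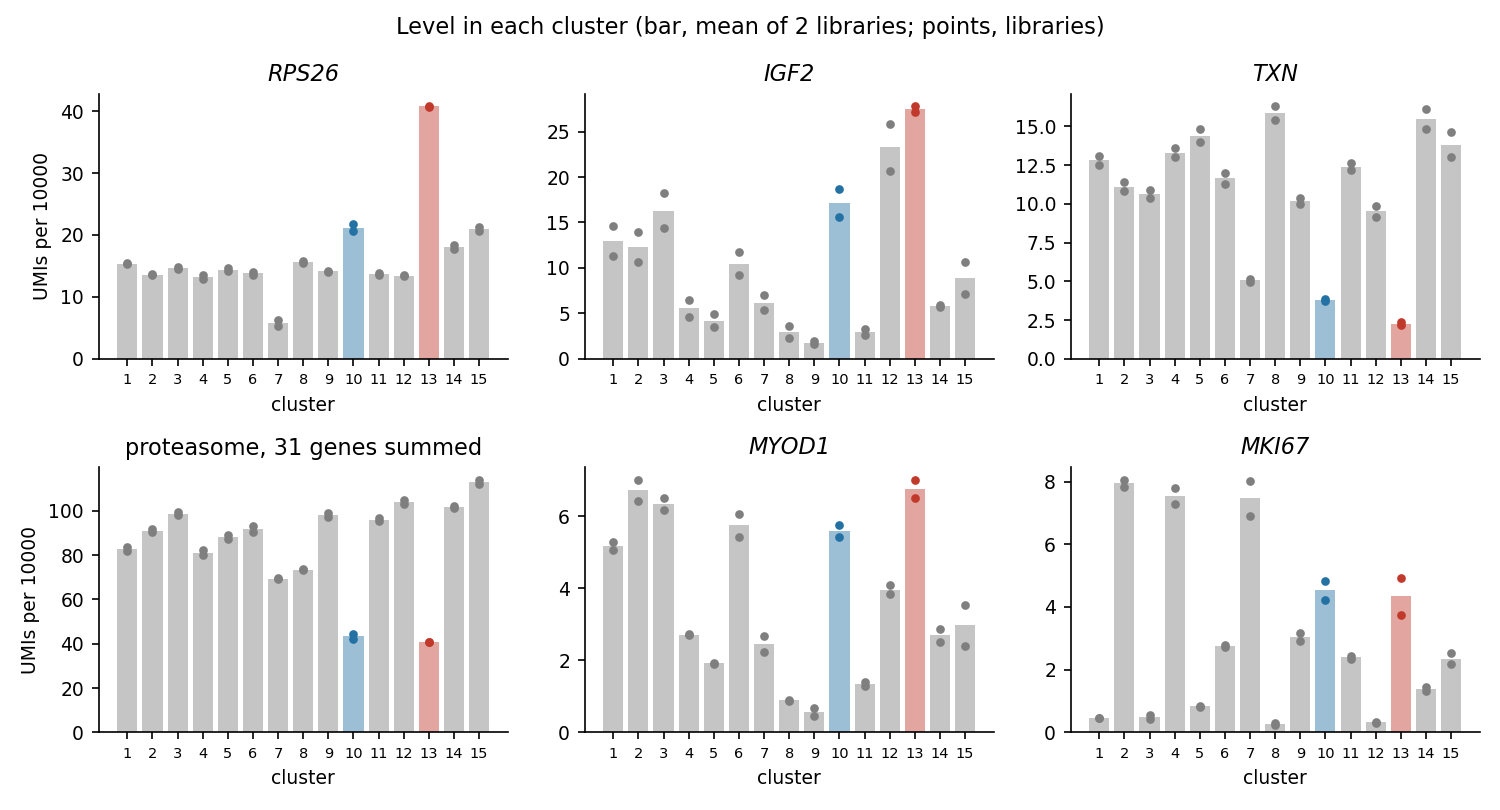
Level (UMIs per 10000) of RPS26, IGF2, TXN, the summed proteasome list, MYOD1 and MKI67 in each of the 15 clusters, with bars at the mean of 2 libraries, points for the libraries, cluster 13 in red and cluster 10 in blue. Cluster 13 stands highest for RPS26 and IGF2, and clusters 13 and 10 stand lowest for TXN and the proteasome.

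Of the called genes, RPS26 and RPLP1 varied with depth inside each cluster in the same direction as between the clusters, in both libraries. RPS26 had 45.2 and 51.9 in cells of cluster 13 under 1000 UMIs, 42.3 and 41.7 from 1000 to 2000, and 37.9 and 37.4 from 2000 to 4000. In cluster 10 it had 28.5 and 29.8 from 2000 to 4000 UMIs, 24.1 and 25.2 from 4000 to 8000, and 18.4 and 16.5 above. The deeper cells of each cluster thus had the lower levels. In the class that both clusters reach, from 2000 to 4000, cluster 13 lay above cluster 10, but depth was not equal in it. There, 101 and 76 cells of cluster 13 held 236831 and 178242 UMIs. In cluster 10, 154 and 142 cells held 504020 and 452690 UMIs, so its cells were the deeper.

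RPLP1 showed the same order, from 123 and 129 in the shallowest cells of cluster 13 to 83 and 80.4 in the deepest of cluster 10. TXN ran the other way in cluster 10, from 2.88 and 2.96 between 2000 and 4000 UMIs to 4.22 and 4.19 from 8000 UMIs. In cluster 13 the libraries differed in direction for TXN, with 3.01 and 0.86 in the shallowest cells and 2.03 and 2.3 in the deepest. IGF2 was less regular, with 37.2 and 49.6 in the shallowest cells of cluster 13 and 30.3 and 24.3 from 2000 to 4000 UMIs. Cluster 10 had 20.5 and 19.5 in that class, where its cells were the deeper. The libraries of cluster 13 differed in direction for ELN too, with 0.753 and 1.72 in the shallowest cells and 1.48 and 1.12 in the deepest. What part depth has in the called differences was not tested, since depth and cluster largely go together.

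**Figure D4:**
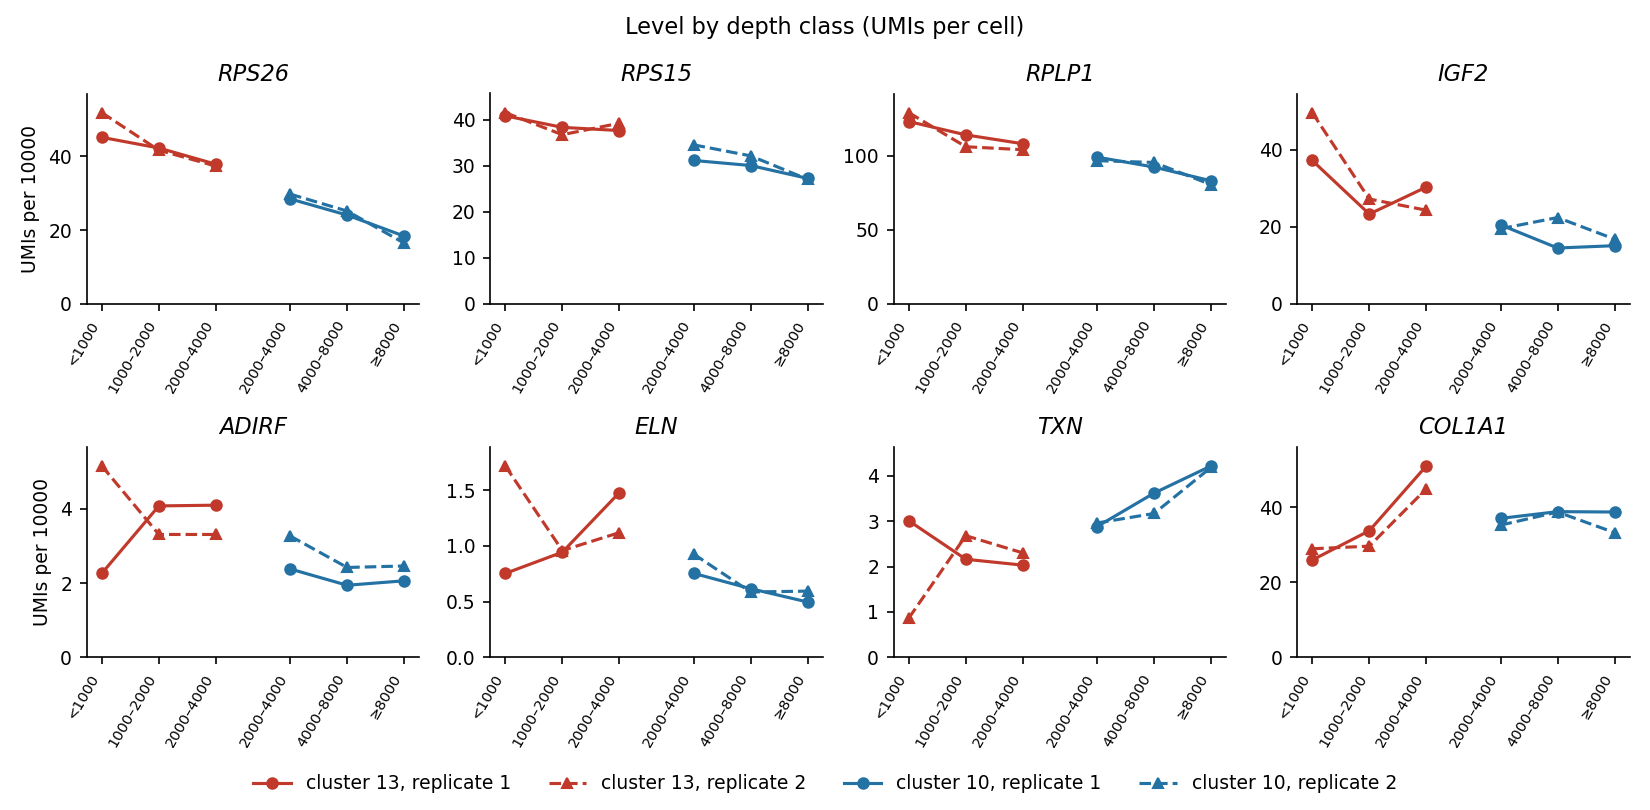
Level (UMIs per 10000) of the 7 called genes and COL1A1 in cells grouped by UMIs per cell, with cluster 13 in red, cluster 10 in blue, circles for replicate 1 and triangles for replicate 2. RPS26 and RPLP1 decline with depth across both clusters, TXN climbs with depth in cluster 10, and COL1A1 climbs with depth in cluster 13 but is flat in cluster 10.

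Other genes varied with depth mainly within cluster 13. COL1A1, a chain of type I collagen, had 25.9 and 28.9 in its cells under 1000 UMIs and 51 and 44.9 from 2000 to 4000, while the 3 depth classes of cluster 10 stayed between 33.2 and 38.8. VIM, the intermediate filament vimentin, had 54 and 57.6 in the shallowest cells of cluster 13 and 78.2 and 77.3 in the deepest, and between 66.9 and 72.9 in the depth classes of cluster 10. The glycolytic enzyme gene GAPDH had 23.4 and 24.7 in the shallowest and 31.4 and 31.5 in the deepest, and between 26.1 and 28.2 in cluster 10. MYOD1 went the other way, with 10.5 and 8.31 in the shallowest cells of cluster 13 and 6.21 and 6.17 in the deepest. In cluster 10 it had 6.81 and 5.57 from 2000 to 4000 UMIs and 5.01 and 5.48 from 8000 UMIs.

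The cells of overlapping depth, from 2111 to 3323 UMIs, were therefore compared on their own, an analysis chosen after the data had been seen. It kept 136 cells of cluster 13 (78 and 58 in replicates 1 and 2) and 168 of cluster 10 (81 and 87), with medians of 2378.5 and 2931 UMIs. Of 3432 genes tested, 30 were higher (0.874%) and 2 lower (0.0583%) in cluster 13. The genes named from this comparison lie outside the naming rule and were picked after their values were seen, apart from those named above.

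At this depth the ribosomal protein genes leaned towards cluster 13. Of the 76 tested, 25 were called higher, against 0.874% of all genes, and all 76 had a positive log2 fold change after TMM scaling. The median was 0.30 against 0.01 for all genes. For the genes called higher at this depth, here and below, the scaled fold changes exceeded the ratios of the printed levels. How far their size, shared sign and calls rest on the scaling was not tested. In the wider shared depth class, the list's unscaled level was 3230 and 3226 in cluster 13, and 2976 and 2939 in cluster 10. RPS26 had 37.6 and 38.6 in cluster 13 and 29.5 and 31 in cluster 10, and its log2 fold change was 0.45 (edgeR adjusted p = 0.00845), less than the 0.97 over all cells. RPS15 was called as well (0.39, edgeR adjusted p = 0.0263), while IGF2 and TXN (0.49 and −0.18, edgeR adjusted p = 0.357 and 0.939) and RPLP1, ADIRF and ELN were not.

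The other genes called higher at this depth encode matrix and cytoskeletal proteins and, in GAPDH, a glycolytic enzyme. COL1A1 had 52.2 and 47 in cluster 13 and 32.9 and 32.7 in cluster 10 (log2 fold change 0.71, edgeR adjusted p = 0.000481), and COL1A2, its partner chain, 61.7 and 61.7 against 48.8 and 49.3 (0.45, edgeR adjusted p = 0.00441). Over all cells neither collagen was called without the library block. VIM and GAPDH were higher by 0.33 and 0.47 (edgeR adjusted p = 0.0387 and 0.0175), and TMSB10, an actin-binding thymosin, by 0.31 (edgeR adjusted p = 0.0175).

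INHBA, the activin A subunit, was called lower at this depth. It rested on 3 and 1 UMIs in cluster 13 and 25 and 22 in cluster 10 (log2 fold change −2.82, edgeR adjusted p = 0.0263). Over all cells it had a log2 fold change of −0.81 (edgeR adjusted p = 0.317), and with the library as a block it was called lower (−0.84, edgeR adjusted p = 0.0121). By depth, cluster 13 had 0.753 and 1.15 under 1000 UMIs, from 3 and 4 UMIs, and 0.776 and 0.383 from 1000 to 2000. From 2000 to 4000 it had 0.169 and 0.112. The depth classes of cluster 10 stayed between 0.628 and 1.04.

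The gene lists showed how alike the clusters were over all cells. Over the 21 pathway lists with a tested gene, the median log2 fold change of a list lay between −0.17 (S phase) and 0.19 (myogenic regulators), against 0.003 for all genes. The 5 list genes called were 3 ribosomal proteins, IGF2, which is in 2 lists, and ELN.

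Of the 78 ribosomal protein genes tested, 3 were called higher and none lower, against 0.0676% of all genes, and 49 had a positive log2 fold change. The list's median was 0.03, and its summed level was 3126 and 3138 in cluster 13 and 3023 and 3072 in cluster 10. RPS12 had the highest level of any gene in cluster 13, 162 and 163, against 151 and 150 in cluster 10 (log2 fold change 0.14, SE 0.0476, edgeR adjusted p = 0.38). RPS2 had 102 and 96.8 against 87.8 and 86.2 (0.22, SE 0.0509, edgeR adjusted p = 0.197). RPLP0, the stalk base protein, had 100 and 94.3 against 97.5 and 94.4 (0.05, SE 0.0514, edgeR adjusted p = 0.857). With the library as a block, 17 of the 78 were called higher and 5 lower, against 0.71% and 0.744% of all genes. Calls thus went both ways in this list, with more of them higher.

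Translation factors were near equal, with summed levels of 274 and 287 in cluster 13 and 270 and 285 in cluster 10 and a median of 0.04. EEF1A1, the elongation factor that delivers transfer RNA to the ribosome, had 81.8 and 98 against 77.2 and 91.4 (log2 fold change 0.12, SE 0.0865, edgeR adjusted p = 0.761). The replicates differed more than the clusters, by a like amount in both clusters. With the library as a block EEF1A1 was called higher (edgeR adjusted p = 0.00156). So were 2 other genes of the 20 tested, against 0.71% of all genes. TPT1 and RACK1 had log2 fold changes of −0.06 and −0.08 (edgeR adjusted p = 0.834 and 0.775).

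Among the 16 imprinted growth regulators tested, IGF2 alone was called, and the summed level was 45 and 46 in cluster 13 and 31.1 and 34.9 in cluster 10, mostly IGF2 itself. CDKN1C, a brake on the cell cycle, had 7.05 and 6.73 against 5.38 and 6.19 (log2 fold change 0.28, SE 0.0897, edgeR adjusted p = 0.351), and was called higher with the block (edgeR adjusted p = 0.00238). The median of the list was 0.15. Of the insulin-like growth factor axis 10 genes were tested, and the median was −0.02. The receptor gene IGF2R, which clears IGF2, had 2.15 and 1.71 against 1.72 and 1.86 (0.15, SE 0.125, edgeR adjusted p = 0.798), and the binding protein gene IGFBP6 had 1.88 and 1.64 against 2.35 and 2.3 (−0.36, SE 0.113, edgeR adjusted p = 0.346). The higher level was thus seen for the ligand, and no receptor or binding protein of the axis was called. With the library as a block the binding protein gene IGFBP3 was called higher as well (log2 fold change 0.45, edgeR adjusted p = 0.0139). That fit called 2 of the 16 imprinted genes and 2 of the 10 axis genes higher, IGF2 in both lists, against 0.71% of all genes.

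The matrix lists held a single called gene, ELN, among 35 matrix and adhesion genes, and none among 13 collagens. The summed collagen level was 150 and 145 in cluster 13 and 138 and 135 in cluster 10. COL1A2 had 53.1 and 52.9 against 47.7 and 48.7, and COL3A1, of type III collagen, had 39.7 and 38.9 against 34.6 and 33.4 (log2 fold changes 0.17 and 0.24, edgeR adjusted p = 0.367 and 0.202). With the library as a block both were called higher (edgeR adjusted p = 1.85e-05 and 1.44e-09) and COL4A1 lower (edgeR adjusted p = 0.0267). Of the 35 other matrix genes 3 were then higher and 2 lower, against 0.71% and 0.744% of all genes. SPARC, MMP2 and SERPINH1, the most abundant of the other matrix genes, had log2 fold changes of 0.10, −0.06 and 0.01.

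Muscle genes leaned towards cluster 13 without a call. Of 28 muscle structure genes tested, 23 had a positive log2 fold change, but the median was 0.48 in replicate 1 and 0.02 in replicate 2. ACTA1, the skeletal alpha-actin, had 1.73 and 0.356 in cluster 13 and 0.419 and 0.453 in cluster 10, so its higher mean in cluster 13 came from replicate 1 alone. TPM1, a tropomyosin, and ACTC1, the cardiac alpha-actin, were more abundant and had log2 fold changes of −0.10 and 0.01 (edgeR adjusted p = 0.698 and 0.983). Of 22 myogenic regulators, ANKRD1, a muscle ankyrin repeat protein, had 7.45 and 7.61 against 5.11 and 5.97 (0.47, SE 0.0912, edgeR adjusted p = 0.0853). ID1, an inhibitor of myogenic factors, had 4.75 and 4.27 against 5.6 and 5.8 (−0.30, SE 0.0856, edgeR adjusted p = 0.297). With the library as a block ANKRD1, MYOD1, DES, MYH3 and ACTA1 were called higher and ID1 lower (edgeR adjusted p = 6.19e-10, 0.00238, 1.32e-07, 0.00544, 6.19e-10 and 0.0121). These were 3 higher of the 28 muscle structure genes, and 2 higher and 1 lower of the 22 regulators. In the same fit 0.71% of all genes were higher and 0.744% lower. ACTA1 was called so although its level in replicate 2 was lower in cluster 13 than in cluster 10. The log2 fold change of MYH3 was 1.267 in replicate 1 and 0.068 in replicate 2. Calls with the block thus do not show that the libraries agree.

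Respiratory chain genes leaned the other way. Of 41 nuclear genes tested, 29 had a negative log2 fold change and none was called, with a median of −0.10 in both replicates. The summed level was 129 and 137 in cluster 13 and 142 and 149 in cluster 10. NDUFA4, a subunit associated with complex IV, had 9.07 and 8.87 against 10.7 and 11.6 (−0.29, SE 0.0754, edgeR adjusted p = 0.264), and ATP5MC3, of the ATP synthase, had 6.05 and 6.14 against 7.66 and 7.6 (−0.29, SE 0.0753, edgeR adjusted p = 0.253). ATP5F1E, of the same enzyme, had 12 and 12.9 against 11.1 and 12 (0.13). With the library as a block 6 of the 41 were called, all lower, against 0.744% of all genes, NDUFA4 and ATP5MC3 among them. In the depth class that both clusters reach, the summed level was 128 and 141 in cluster 13 and 133 in each library of cluster 10. The libraries thus differed in direction there. The deepest class of cluster 10 had a higher level, 147 and 159. In cluster 13 the shallowest cells had 132 and 136. What part depth has in this lean and in the block calls was not tested.

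Cell cycle genes had no call in either list without the library block. With the block CKS2 and HMGB2, 2 of the 52 G2/M genes, were lower (edgeR adjusted p = 0.0212 and 0.00313), against 0.744% of all genes. Of 41 S phase genes 31 had a negative log2 fold change, with a median of −0.17, and of 52 G2/M genes 36, with a median of −0.15. MKI67, a marker of dividing cells, had 4.92 and 3.75 in cluster 13 and 4.82 and 4.23 in cluster 10 (−0.02, SE 0.108, edgeR adjusted p = 0.986), between cluster 8, the lowest, at 0.219 and 0.286 and cluster 2, the highest, at 8.06 and 7.84. It was detected in 30.2% and 30.3% of cells thinned to 1000 UMIs, against 1.93% in cluster 8. CENPF, of the centromere, had 7.56 and 6.31 against 7.37 and 6.53, and the S phase genes USP1, RRM2 and MCM4 had log2 fold changes of −0.22, 0.05 and −0.07. Both clusters thus held transcripts of dividing cells, with MKI67 and CENPF at like levels. The summed S phase level was lower in cluster 13 in each library, at 20.3 and 19.6 against 22.8 and 21.7. So was the G2/M level, at 56.2 and 48.9 against 60.4 and 54.

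Stress, metabolic and cytoskeletal lists held no called gene without the library block. With it, MT2A, CYCS and MANF of the stress lists were called lower (edgeR adjusted p = 0.000119, 0.00309 and 0.00403). Of the glycolysis list GAPDH was then higher and PGAM1, TPI1 and ALDOA lower (edgeR adjusted p = 0.0297, 1.59e-05, 0.0358 and 0.0444). Of the 30 actin genes 2 were higher, ACTB among them, and 3 lower. In the same fit 0.71% of all genes were higher and 0.744% lower. The immediate early genes had a median of 0.15, with JUN, EGR1 and BTG1 at −0.12, 0.21 and 0.19. The unfolded protein response had a median of −0.01 (CALR 0.15, ATF4 0.14, CANX 0.02), the p53 targets 0.06 (CDKN1A 0.14, GADD45A 0.06, CYCS −0.50) and the metallothionein and zinc genes −0.10. MT2A, a metallothionein, had 1.17 and 2.06 in cluster 13 and 2.38 and 2.49 in cluster 10 (−0.61, SE 0.165, edgeR adjusted p = 0.283). Glycolysis had a median of −0.04 (GAPDH 0.13, PKM 0.13, PGAM1 −0.28) and cholesterol synthesis 0.06 (HMGCS1 0.08, SREBF2 0.22, MSMO1 0.05). The actin list had −0.02 (TMSB10 0.03, VIM 0.03, ACTB 0.17) and the chromatin and speckle list 0.02 (AHNAK −0.05, SRRM2 −0.18, HNRNPU −0.16).

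Against the other 13 clusters, clusters 13 and 10 stood apart together in a few gene groups. These are descriptions with no test, because the clusters were formed from these counts. Of the 8876 genes, 410 (4.62%) lay in all 4 sums of clusters 13 and 10 below all 26 sums of the other clusters, and 186 (2.1%) lay above them.

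The proteasome, the complex that degrades ubiquitin-tagged proteins, was the group that stood furthest apart. Of its 31 subunit genes, 28 lay below all other sums, and the exceptions were PSMA7, PSMD14 and PSMD3. The summed level was 40.7 and 40.9 in cluster 13 and 44.3 and 42.2 in cluster 10, while the other clusters ranged from 69.3 (cluster 7) to 113 (cluster 15), with a median of 91.9. Clusters 13 and 10 thus held 0.444 and 0.47 times that median. PSMD7 and PSMD8, of the regulatory cap, had 3.12 and 2.68, and 2.5 and 2.39 in cluster 13, where the lowest sums elsewhere were 3.82 and 4.56. PSMA7 had 8.99 and 9.58 in cluster 13 and 9.28 and 8.5 in cluster 10, inside the range of 5.9 to 13.1.

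By depth, the proteasome level of cluster 13 was 45 and 43 in cells under 1000 UMIs, 41.2 and 42.9 from 1000 to 2000, and 39.5 and 38 from 2000 to 4000, the lowest in the deepest cells of both libraries. It was 44.6 and 43.7 in cells of cluster 10 with 8000 UMIs or more, 43.9 and 39 in those from 4000 to 8000, and 43.8 and 42.3 in those from 2000 to 4000. The part of depth in the low level was not tested. Between clusters 13 and 10 no proteasome gene was called, and the median log2 fold change was −0.09 with 23 of 31 negative.

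Chaperones and smooth muscle markers were low as well. The smooth muscle markers, mostly ACTA2, summed in clusters 13 and 10 to 0.552 and 0.475 times the median of the other clusters. The heat shock and chaperone list summed to 100 and 96.3 in cluster 13 and 100 and 97.1 in cluster 10, against 126 (cluster 8) to 191 (cluster 12) elsewhere, and 9 of 26 genes lay below all other sums. These were HSP90AA1, HSPA9, HSPD1, HSPB1, CRYAB, DNAJA1, CCT2, CCT3 and CCT5, which fold newly made or damaged proteins. HSP90AA1 had 13.1 and 13.2 in cluster 13 and 14.5 and 13.9 in cluster 10, where the lowest sum elsewhere was 25.9. HSP90AB1, the constitutive form, had 26.6 and 24.2 in cluster 13 and 24.7 and 23.5 in cluster 10, at the lower edge of the others (25.1 to 41.3). HSPA8, with 12.8 and 12 in cluster 13, was inside the range of 10.8 to 26.8. Between the clusters the list had a median of 0.02.

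Ribosomal protein genes were the only list with a summed level above every other cluster in both clusters 13 and 10. Of 78, 18 lay above all other sums, and the summed level of clusters 13 and 10 exceeded the highest other cluster (2900, cluster 14) by 1.08 and 1.05 times. The shallow cluster 7 had the lowest sum, 915. Over the median of the other clusters, the ribosomal list stood at 1.24 and 1.2 times in clusters 13 and 10. The imprinted list stood higher on that scale, at 2.15 and 1.56 times, as did the insulin-like growth factor axis, at 2.07 and 1.51 times. The imprinted genes PEG10 and SNRPN also lay above all other sums. In the insulin-like growth factor axis cluster 13 exceeded the highest other cluster (27.9, cluster 12), with 35.7 and 37.1, while cluster 10 reached 24.8 and 28.1.

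**Figure D5:**
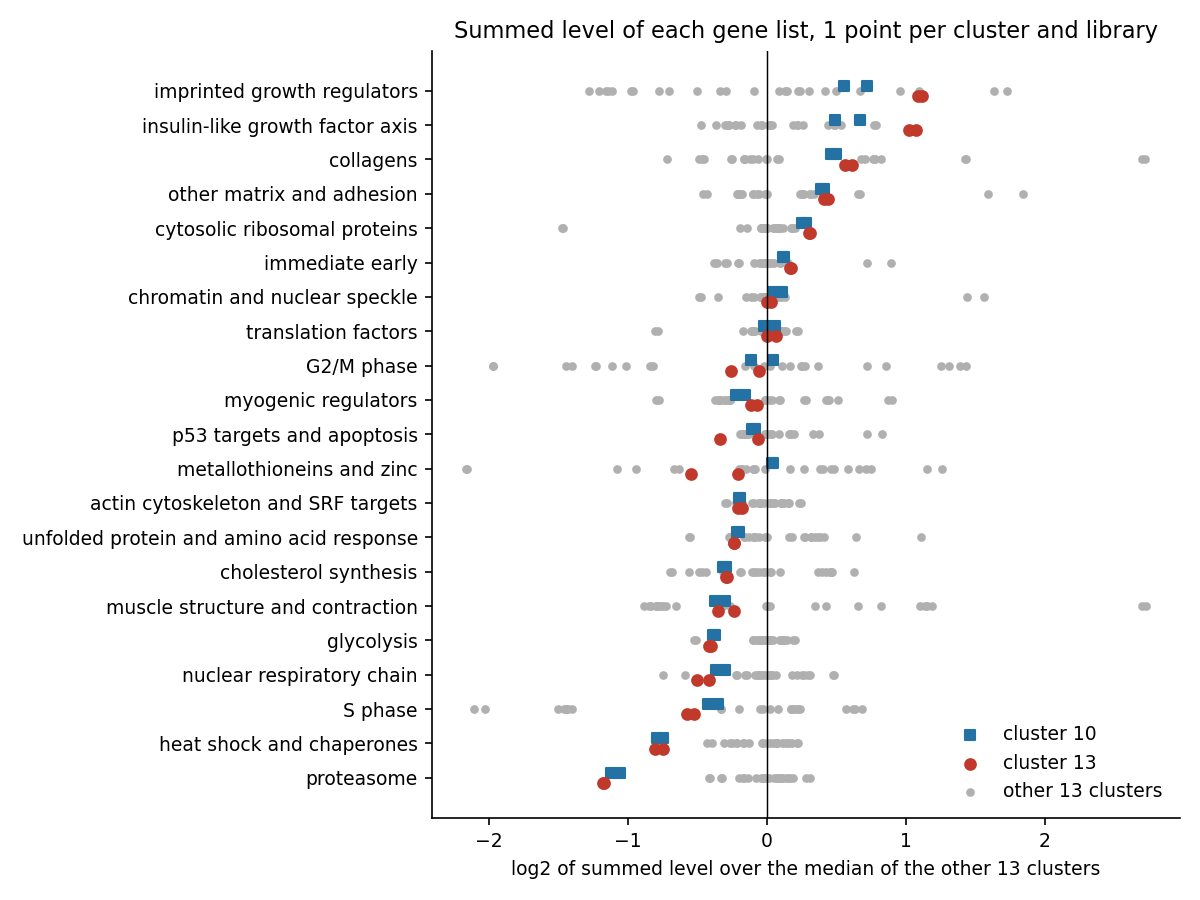
Log2 of the summed level of each gene list over the median of the other 13 clusters, with 1 point for each cluster and library, cluster 13 in red, cluster 10 in blue and the other clusters in grey. The proteasome and chaperone lists of clusters 13 and 10 lie to the left of every other cluster, and the red and blue points lie close together except in the imprinted, insulin-like growth factor and metallothionein lists.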

How the data were processed

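Satellite cells of 1 calf gave 2 libraries, made with the 10x Genomics 3′ v3 kit. Alignment to the genome build ARS-UCD1.2, cell calling and UMI counting were done by the authors in Cell Ranger 3.0.2, which also thinned both libraries to the same mapped depth. They deposited the UMI counts, whole numbers without further normalization, with 145631299 UMIs in replicate 1 and 137818568 in replicate 2. The other values used, of no standard unit, are the deposited averages per cluster on a scale set by the authors. The authors' fold changes and p-values per cluster were not used.

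The averages convert to whole UMI sums, which fixed the cluster of all 19096 cells with 0 of 252240 pairs of gene and cluster differing. Python 3.11.15 and R 4.3.3 were used. UMIs were summed per cluster and library and compared with edgeR 4.0.16 (TMM, filterByExpr, quasi-likelihood test, Benjamini-Hochberg), after a check on simulated data. The library pairs the sums: log2 ratios of replicate 1 to 2 in clusters 13 and 10 correlated at 0.23 across the 3051 genes that reached 20 UMIs in all 4 sums. The design had no block, and the block is an alternative, as are DESeq2 1.42.0, other scalings, no filter, all 15 clusters in 1 fit, thinned cells and each library left out. Intervals are exact binomial at 95% and count cells, which are not replicates. A gene was named if among the 12 largest or smallest called changes at a level of at least 1 in either cluster, among the 3 most abundant of a pathway list, a cell type marker, IGF2, or among the 5 highest in cluster 13. The members and gene lists were chosen with earlier results of these data known. Where several genes carry a symbol, each was counted. Genome positions were not analysed here. Some single-gene results are not reported here.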

Additional observations from a re-analysis of the deposited data

How the results depend on the processing

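Depth is the main limit, since cluster 13 holds 994870 UMIs against 7787977 in cluster 10 and only 1 animal was sampled. The median number of genes per cell was lower in cluster 13 by 15.5 at 1000 UMIs, and the difference (cluster 13 minus cluster 10) was −1165 unthinned and −4.0 at 500 UMIs. The planned window of matched depth gave no value, since its lower bound in cluster 10 (3014.2 UMIs) exceeded its upper bound in cluster 13 (2412), and was replaced by the cells of overlapping depth. Calls were 6 higher and 1 lower, 5 of them in the lists. They were 6 and 4 without TMM. With no filter on low counts they were 15 and 55 (31 in the lists), where 13821 genes were tested and the median of all genes shifted to −0.10. With the library as a replicate block they were 63 and 66 (62 in the lists). With all 15 clusters in 1 fit they were 10 and 41 (19 in the lists). In thinned cells they were 1 and 0 (1 in the lists, 308 genes at an unadjusted p under 0.05), and DESeq2 gave 4 and 1. Leaving out 1 library gave 4 to 18 higher, 1 to 14 lower and 4 to 12 in the lists. Cells of overlapping depth gave 30 and 2 (31 in the lists), and leaving out cells of 8000 UMIs or more gave 5 and 0 (438 genes at an unadjusted p under 0.05), and both were chosen after seeing the data. The causes of these shifts were not tested. Over 14 alternatives RPS26 was called in 14, RPS15 in 13, IGF2 in 11, RPLP1 and TXN in 10, ADIRF in 9 and ELN in 8, with the same sign in each. The 79 other list and marker genes had no call in the main fit, so there was none to reverse. Some gained a call under an alternative, such as MYOD1 and DES with the library as a block.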

Other observations

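Beyond the gene lists, some genes lay outside all sums of the other 13 clusters in both clusters 13 and 10. They were picked after their values were seen, among those far from the median of the other clusters, and carry no test. UBB, a ubiquitin gene whose product tags proteins for the proteasome, had 2.58 and 2.42 in cluster 13 and 3.09 and 3.15 in cluster 10, against 6.39 to 15.1 elsewhere. MDH1, the cytosolic malate dehydrogenase, had 0.715 and 0.688 in cluster 13 and 0.832 and 0.754 in cluster 10, against 1.58 to 3.78 elsewhere. ANXA1, a phospholipid-binding annexin, had 2.32 and 1.94 in cluster 13 and 2.29 and 2.09 in cluster 10, against 3.48 to 11.1 elsewhere. Above all others lay KIF1C, a kinesin motor, with 1.69 and 1.59 in cluster 13 and 1.48 and 1.51 in cluster 10, against 0.523 to 1.16 elsewhere. PEA15, a death effector domain protein, had 3.45 and 3.27 in cluster 13 and 3.17 and 3.01 in cluster 10, against 1.08 to 2.16 elsewhere.

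Genes called with the library as a block that belong to no list included LGALS1, which encodes galectin-1, with a log2 fold change of −0.55 (edgeR adjusted p = 1.05e-07), and YBX1, an RNA-binding protein, with 0.28 (edgeR adjusted p = 5.77e-06). They were picked after their values were seen, and neither was called without the block.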
